A study of Mus musculus with 10 samples.

Results

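The transcripts described here are those that the array annotation still listed under a provisional symbol, either Gm and a number or a RIKEN clone name ending in Rik, outside chromosome 14. They were chosen by their signal: each probe set named exactly 1 such symbol and had a mean log2 signal of 7 or more in at least 1 of the 4 groups of arrays. The rule kept 2383 of the 65956 transcript probe sets measured, covering 2369 symbols, and 6921 further model-name probe sets outside chromosome 14 lay under the limit. Of the 2383, 2057 reached 7 in all 4 groups and 108 in only 1. A transcript that passed through 1 group alone, or only through the groups of 1 cell type, had to differ between groups. The counts over all transcripts are therefore also given for the 2213 whose mean over all 10 arrays reached 7. The last transcripts inside the limit were 4833438C02Rik, Gm25410 and Gm25214, with highest group means of 7.0008, 7.0016 and 7.0016, and the first outside were Gm25723, 4833447I15Rik and Gm15546, at 6.9993, 6.9983 and 6.9976.

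The arrays measured CD4+ T cells from lymph nodes of female mice on the C57BL/6 background, 6 to 8 weeks of age. Every mouse had RFP, a red fluorescent reporter, expressed with Foxp3, which is the transcription factor that defines regulatory T (Treg) cells. The groups were Il2ramut/mut Treg cells (3 arrays), WT Treg cells (3 arrays), Il2ramut/mut conventional T (Tconv) cells (2 arrays) and WT Tconv cells (2 arrays), with RFP+ Treg cells and RFP-negative Tconv cells sorted by flow cytometry. Il2ramut/mut mice carry a spontaneous tyrosine-to-histidine change in CD25, the alpha chain of the IL-2 receptor, which was found in a Ccr2-/- colony and kept on a Ccr2+/+ background by intercrossing. That colony held other coding variants, which the genotype label does not separate from the CD25 change, and the study's methods describe the Tconv cells as naive and CD25-negative. Each array's numbered label was taken as a separate sample. The p-values measure the spread between these arrays, 2 or 3 in a group, and this number limits the precision of every value.

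Model names cover several kinds of RNA. Pseudogenes are disabled copies of genes, many of them made when an mRNA was copied back into the genome. Small nuclear RNAs (snRNAs) such as U6 form the spliceosome and have many scattered copies, small nucleolar RNAs (snoRNAs) guide the modification of other RNAs from within introns of host genes, and long noncoding RNAs (lncRNAs) often lie beside or inside coding genes. Some model names are coding genes of families that vary between mouse strains, such as the interferon-inducible GTPases. IL-2 acts through its receptor and STAT5 to maintain Treg cells, and the comparison of Il2ramut/mut with WT cells asks how a weakened IL-2 signal alters expression in each cell type.

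RefSeq held an entry for each of the symbols, 72 of the 2383 through a synonym. Its gene types put 1400 transcripts among pseudogenes, 369 among snRNAs, 196 among lncRNAs, 168 among snoRNAs, 153 among protein-coding genes and 74 among transcribed pseudogenes, with 10 guide RNAs, 10 miscellaneous RNAs, 2 miRNAs and 1 rRNA. RefSeq has since given 69 of them a proper name, 52 of these as a pseudogene of a stated parent. Chromosome 2 carried the most (271), followed by X (205), 4 (204) and 11 (195), and Y carried 1. A set of 117 transcripts shared all 10 array values with at least 1 other probe set, in 35 sets, the largest of which held 45 snRNA symbols. Such symbols were measured as 1 quantity, and 2301 transcripts were left with 1 kept from each set.

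Promoter windows show what is annotated at the starts of the lncRNAs on which the genotype comparison turned. RefSeq (GRCm38.p6) listed a promoter, taken as 250 bases before to 50 after the start, for 289 of the 2369 symbols (292 probe sets), and most pseudogenes and small RNAs had none. The search covered both strands for 3 motifs: TTCNNNGAA, bound by STAT factors, TGTTTAC, bound by forkhead factors, and TGTGGT, bound by Runx factors. The letters TTCNNNGAA were found in 7.96% of the 289 windows, against 8.47% of the 27025 in the table. For TGTTTAC the shares were 2.08% and 3.55%, and for TGTGGT 20.1% and 16.9%. None of the 3 was found in the windows of 9630013D21Rik (chr4:109657539-109657838, minus strand, 1 of 2 listed starts), Gm11695 (chr11:115463665-115463964, minus strand, 1 of 4 listed starts), Gm11454 (chr2:163122365-163122664, plus strand) or Gm20324 (chr15:82898830-82899129, plus strand), the 4 lncRNAs called between Il2ramut/mut and WT Treg cells. These windows are printed 5′ to 3′ on the strand of the gene. The window of Gm4955 (chr1:173491269-173491568, minus strand), now Ifi206 of the Ifi200 family, is added as the only one with a match among the 9 windows of named transcripts that were examined, and its forkhead letters, starting 79 bases before the start, are in capitals. A match is a description of letters and not a binding site.
9630013D21Rik: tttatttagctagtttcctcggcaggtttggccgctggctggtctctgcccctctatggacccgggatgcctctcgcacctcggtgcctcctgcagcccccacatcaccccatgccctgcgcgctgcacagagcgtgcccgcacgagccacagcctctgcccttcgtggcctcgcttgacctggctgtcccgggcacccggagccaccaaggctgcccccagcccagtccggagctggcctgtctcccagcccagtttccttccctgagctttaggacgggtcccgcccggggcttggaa
Gm11695: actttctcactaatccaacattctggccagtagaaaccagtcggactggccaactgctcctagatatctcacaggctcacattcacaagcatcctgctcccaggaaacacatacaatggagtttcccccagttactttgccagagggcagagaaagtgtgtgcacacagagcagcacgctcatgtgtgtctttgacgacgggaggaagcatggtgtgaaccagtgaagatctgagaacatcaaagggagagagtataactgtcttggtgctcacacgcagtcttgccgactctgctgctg
Gm11454: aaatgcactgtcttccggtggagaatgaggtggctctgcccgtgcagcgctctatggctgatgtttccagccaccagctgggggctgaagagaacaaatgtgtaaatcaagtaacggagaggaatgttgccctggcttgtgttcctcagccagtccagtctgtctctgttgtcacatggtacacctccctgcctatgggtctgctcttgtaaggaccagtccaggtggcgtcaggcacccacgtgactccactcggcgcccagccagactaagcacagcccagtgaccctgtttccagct
Gm20324: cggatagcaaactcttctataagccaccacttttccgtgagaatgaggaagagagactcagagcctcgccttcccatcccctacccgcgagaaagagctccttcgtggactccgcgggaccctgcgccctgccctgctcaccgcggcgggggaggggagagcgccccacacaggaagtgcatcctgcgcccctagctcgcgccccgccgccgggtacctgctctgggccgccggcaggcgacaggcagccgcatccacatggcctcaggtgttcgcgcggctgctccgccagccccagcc
Gm4955: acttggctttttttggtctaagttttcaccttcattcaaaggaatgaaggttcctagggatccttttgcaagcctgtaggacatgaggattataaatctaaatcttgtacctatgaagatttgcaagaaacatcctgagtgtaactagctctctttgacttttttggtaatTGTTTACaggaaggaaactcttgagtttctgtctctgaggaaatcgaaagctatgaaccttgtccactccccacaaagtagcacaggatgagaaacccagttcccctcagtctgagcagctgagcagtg

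The signals are log2 values, and the background of an array was read from 23 antigenomic controls, probes without a mouse target, as their 95th percentile. Array medians ran from 4.97 to 5.13, and 2364 of the 2383 transcripts were above background on all 10 arrays. The 9 Treg markers measured, Il2ra among them, averaged 14.23 to 14.33 on Il2ramut/mut Treg arrays and 14.17 to 14.26 on WT Treg arrays, against 8.21 to 8.27 on Il2ramut/mut Tconv arrays and 8.28 to 8.36 on WT Tconv arrays. Of the 8 B cell markers measured, Cd79a, Ms4a1, Ebf1, Pax5, Cr2 and Fcer2a were at background in all 4 groups, and 1 was above it on every array, with list means of 4.95 to 5.07 on Il2ramut/mut Treg arrays and 4.93 to 5.02 on WT Treg arrays, against 4.83 to 4.86 on Il2ramut/mut Tconv arrays and 4.87 to 4.88 on WT Tconv arrays. Of the 10 myeloid markers, 5 were above background on every array of each Treg group and 6 in each Tconv group, while Adgre1, Csf1r and S100a8 were at background. Their list means were 5.83 to 6.00, 5.88 to 5.90, 5.84 to 5.93 and 5.90 to 5.92 in the same order of groups. The 2 CD8 T cell markers averaged 6.61 to 7.08 on Il2ramut/mut Treg arrays and 7.15 to 7.41 on WT Treg arrays, against 7.05 to 7.17 on Il2ramut/mut Tconv arrays and 7.23 to 7.58 on WT Tconv arrays. Of these, Cd8a was at background throughout, and the other was above it on every array. The 8 naive CD4 T cell markers averaged 12.16 to 12.29 on Il2ramut/mut Treg arrays and 12.46 to 12.57 on WT Treg arrays, against 14.25 to 14.42 on Il2ramut/mut Tconv arrays and 14.26 to 14.27 on WT Tconv arrays. The Treg and naive cell lists moved as the cell labels say. The 5 natural killer and innate lymphoid markers averaged 6.34 to 6.49 on Il2ramut/mut Treg arrays and 6.14 to 6.29 on WT Treg arrays, against 5.57 to 5.67 on Il2ramut/mut Tconv arrays and 5.57 to 5.73 on WT Tconv arrays, with Ncr1 at background in every group. In the same order of groups, 2, 1, 2 and 2 of the 5 were above background on every array. The 6 stromal markers averaged 5.78 to 5.88, 5.95 to 6.04, 6.22 to 6.27 and 6.26 to 6.32 in the same order of groups, with Col3a1 and Cdh5 at background in every group. Of the 6, the numbers above background on every array were 1, 2, 2 and 2. The part of these differences in the results below was not tested. In sorted cells, fewer cells of a kind and less RNA in each cell cannot be told apart.

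In Treg cells, 6 of the 2383 model-name transcripts differed between Il2ramut/mut and WT mice, 3 higher and 3 lower. The higher ones were the lncRNA 9630013D21Rik and the pseudogenes Gm10087 and Gm13768, and the lower ones were the lncRNAs Gm11695, Gm11454 and Gm20324. All 3 higher ones reached the signal limit only in Il2ramut/mut Treg cells, so they had to be high there to be included, and their direction is no evidence of one. limma fitted all 10 arrays, with Benjamini-Hochberg adjustment over the 65956 probe sets, and adjusted p-values under 0.05 counted as calls. The 6 calls are 0.252% of the transcripts, near the 0.373% of all probe sets called (0.171% higher and 0.202% lower), and 460 (19.3%) had an unadjusted p under 0.05, against 6519 (9.88%) of all probe sets. Of the 7882 properly named probe sets that reached the same signal outside chromosome 14, 77 were called (0.977%). With the limit set on the mean of all 10 arrays, 2 of 2213 were called, both lower and none higher, and with a limit of 8 the calls were 3 lower and none higher. Leaving out 1 Treg array at a time gave 1 to 4 calls: 1 without Il2ramut/mut Treg replicate 3, 1 without WT Treg replicate 2 and 2 without WT Treg replicate 3. Not all of these calls were among the 6. Of the 4 calls without Il2ramut/mut Treg replicate 2, 1 was among the 6, as was 1 of 4 without WT Treg replicate 1. Without Il2ramut/mut Treg replicate 1 it was 3 of 4.

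9630013D21Rik (TC0400003270.mm.1, chromosome 4) stood at 8.10, 7.66 and 8.09 on Il2ramut/mut Treg arrays, against 6.63, 6.67 and 6.62 on WT Treg arrays. It stood at 5.78 and 6.06 on Il2ramut/mut Tconv arrays, against 5.82 and 6.09 on WT Tconv arrays. All 3 Il2ramut/mut Treg arrays lay above the WT Treg arrays, while the Tconv genotypes overlapped. The Treg difference was 1.31 ± 0.14 (SE; limma adjusted p = 0.00853), or 2.49-fold, and it stayed under 0.05 in each fit without 1 array (adjusted p = 0.00684 to 0.0469). The gene lies next to Cdkn2c, which encodes a cyclin-dependent kinase inhibitor and differed by 0.63 ± 0.13 (adjusted p = 0.0939), and on the other side next to Rnf11, at 0.00 ± 0.10 (adjusted p = 0.997). Over the 10 arrays the probe sets of 1 gene most like it were those of Crybg3 (Pearson r = 0.990), Gna15 (r = 0.984) and Gzmb (r = 0.984), the last encoding granzyme B. These correlations were ranked over all probe sets of 1 gene and rest on 4 groups, so they describe the group pattern.

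Gm10087, a pseudogene inside Sbf2 on chromosome 7, stood at 7.76, 7.67 and 7.80 on Il2ramut/mut Treg arrays, against 6.77, 6.94 and 6.74 on WT Treg arrays. The Tconv arrays held 5.97 and 6.31 in Il2ramut/mut mice, against 6.5 and 6.11 in WT mice. The Treg arrays did not overlap, with a difference of 0.92 ± 0.13 (adjusted p = 0.0194), and the call was lost when any 1 of the 6 Treg arrays was left out (adjusted p up to 0.0946). Its host Sbf2 differed by -0.02 ± 0.13 (adjusted p = 0.980), while Swap70 next to it, which encodes an actin-binding signaling protein of lymphocytes, was 0.53 ± 0.09 higher (adjusted p = 0.0477). Gm10087 ran closest to Cmtm7 over the arrays (r = 0.990), and Cmtm7 was 0.69 ± 0.09 higher in Il2ramut/mut Treg cells (adjusted p = 0.0152). Cmtm7 was picked by its correlation over these same arrays, so its difference is no separate evidence.

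Gm11695, a lncRNA that overlaps the monocarboxylate transporter gene Slc16a5 on chromosome 11, was lower, at 5.88, 5.69 and 5.62 on Il2ramut/mut Treg arrays, against 6.97, 6.75 and 6.81 on WT Treg arrays. Tconv arrays held far more, 9.68 and 9.91 in Il2ramut/mut mice and 10.57 and 10.05 in WT mice. The Treg difference was -1.11 ± 0.14 (adjusted p = 0.0152), which is 2.16-fold lower, and leaving out single arrays gave adjusted p-values up to 0.0682. Slc16a5 itself was at background on all 6 Treg arrays, with means of 4.47 in Il2ramut/mut Treg cells and 4.69 in WT Treg cells. Over the 10 arrays Gm11695 ran with Pdk1 (r = 0.998), Nlk (r = 0.997) and Actn1 (r = 0.996). Pdk1 encodes a kinase that restrains pyruvate oxidation.

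Gm11454, between Gtsf1l and the transcription factor gene Tox2 on chromosome 2, stood at 7.35, 7.01 and 7.30 on Il2ramut/mut Treg arrays, against 8.26, 8.28 and 8.26 on WT Treg arrays. The Tconv arrays, at 5.29 and 5.40 in Il2ramut/mut mice against 4.98 and 5.53 in WT mice, were near background, with 1 of 2 above it in each genotype, and Treg cells were higher than Tconv cells by 1.88 ± 0.16 in Il2ramut/mut mice and 3.02 ± 0.16 in WT mice (adjusted p = 1.89e-06). Gm11454 reached the signal limit only in Treg cells, so it had to be higher there to be included. The Treg difference was -1.05 ± 0.14 (adjusted p = 0.0195), lost without any 1 of the 6 Treg arrays (adjusted p up to 0.0928). Tox2 differed by -0.33 ± 0.11 (adjusted p = 0.361). The closest pattern was that of Plagl1 (r = 0.995), a zinc finger gene with a difference of -0.86 ± 0.10 between Il2ramut/mut and WT Treg cells (adjusted p = 0.0119). Plagl1 too was picked by its correlation over these arrays, so its difference is no separate evidence. Gm20324, which overlaps the coactivator gene Tcf20 on chromosome 15, had the smallest called difference, -0.47 ± 0.08 (adjusted p = 0.0466), from 8.15, 8.08 and 8.07 on Il2ramut/mut Treg arrays against 8.62, 8.58 and 8.49 on WT Treg arrays. Its call was lost without any 1 of the 10 arrays (adjusted p = 0.0621 to 0.174) and with quantile normalization.

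**Figure D1:**
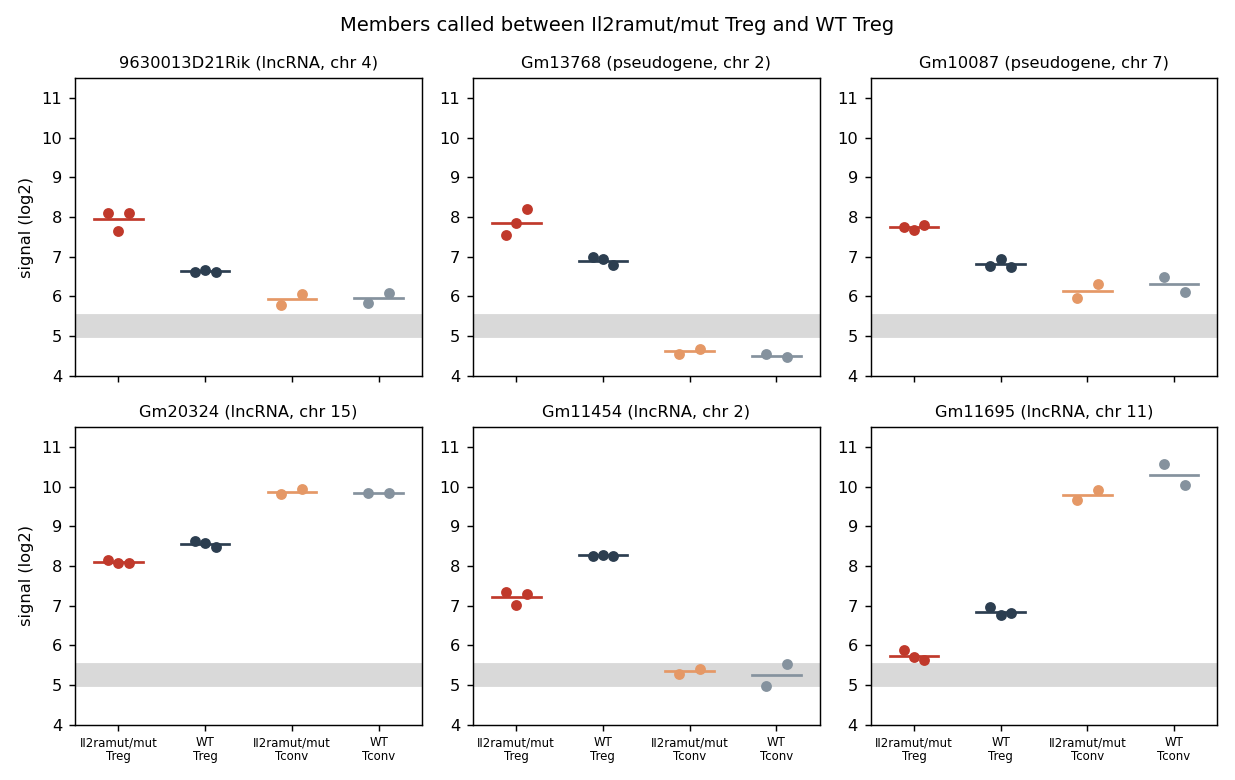
Signal (log2) of the 6 model-name transcripts called between Il2ramut/mut Treg and WT Treg cells, with 1 point for each array, a line at each group mean and a grey band over the background levels of the 10 arrays. In each panel the Il2ramut/mut Treg points lie apart from the WT Treg points, and Gm13768 is at background on all 4 Tconv arrays.

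Gm12169 and 5830416I19Rik had the largest differences of those not called and were singled out after their values were seen. Both reached the signal limit only in Il2ramut/mut Treg cells, so they had to be high there to be included. Gm12169, a coding gene on chromosome 11, stood at 8.36, 6.96 and 8.88 on Il2ramut/mut Treg arrays, against 5.33, 6.08 and 5.94 on WT Treg arrays, a difference of 2.29 ± 0.41 (adjusted p = 0.0602). Its arrays did not overlap, but those within each genotype spread by 0.99 and 0.40 (SD, n = 3 each). The lncRNA 5830416I19Rik stood between 7.38 and 7.52 on Il2ramut/mut Treg arrays, against 4.67, 4.41 and 6.76 on WT Treg arrays, a difference of 2.17 ± 0.57 (adjusted p = 0.208).

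Among the classes, the snRNAs stood lowest in this comparison, with a median difference of -0.27, and 312 of 369 (84.6%) were below 0, against 1743 of all 2383 transcripts (73.1%). None was called, and 147 (39.8%) had an unadjusted p under 0.05. In Tconv cells 306 of the 369 were also below 0, with a median of -0.13. The Treg median over all transcripts described here was -0.12 and over all probe sets -0.002, and after quantile normalization those of the snRNAs and of all these transcripts were -0.18 and -0.05. The per-array medians of the snRNAs were 10.63, 10.59 and 10.56 on Il2ramut/mut Treg arrays, against 10.65, 10.91 and 10.94 on WT Treg arrays. WT Treg replicate 1 was thus near the Il2ramut/mut arrays. At least 45 of these symbols held identical values, so their number does not count independent measurements.

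In Tconv cells none of the 2383 was called between Il2ramut/mut and WT mice, where 0.00303% of all probe sets (2 of 65956) were, and 288 (12.1%) had an unadjusted p under 0.05, against 4674 (7.09%) of all probe sets. By the mean of all arrays the count was 0 of 2213 too. The methods' t-test with a fold of at least 1.5 and p of at most 0.01 counted 4. With 2 arrays against 2, differences of this size are poorly resolved. The smallest p was that of the snRNA Gm23354, at 9.79 and 9.82 on Il2ramut/mut Tconv arrays against 8.65 and 8.50 on WT Tconv arrays, a difference of 1.23 ± 0.15 (adjusted p = 0.149). Gm22067, an snRNA copy inside Ep300, differed by -1.01 ± 0.15 (adjusted p = 0.194), Gm22622, which reached the signal limit only in WT Tconv cells, by -0.72 ± 0.12 (adjusted p = 0.284), Gm20544 by -0.54 ± 0.09 (adjusted p = 0.292) and Gm7645 by -0.88 ± 0.16 (adjusted p = 0.351).

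The difference between the Treg and the Tconv effect of the mutation was called for none of the transcripts, against 0.00152% of all probe sets (1 of 65956), and 113 (4.74%) had an unadjusted p under 0.05, against 4301 (6.52%) of all probe sets. A Treg effect larger than that in Tconv cells was thus not resolved for any of them. Gm22067 came nearest, at 1.38 ± 0.19 (adjusted p = 0.117), with 11.70, 11.35 and 11.55 on Il2ramut/mut Treg arrays against 11.23, 11.19 and 11.05 on WT Treg arrays, and with 9.90 and 10.25 on Il2ramut/mut Tconv arrays against 11.06 and 11.11 on WT Tconv arrays. 9630013D21Rik followed at 1.35 ± 0.22 (adjusted p = 0.173), then Gm23344, a snoRNA inside Rpl4, at -1.61 ± 0.27 (adjusted p = 0.213), Gm10087 at 1.09 ± 0.20 (adjusted p = 0.245) and Gm24630 at -1.76 ± 0.34 (adjusted p = 0.260).

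Treg and Tconv cells differed in far more of these transcripts than the genotypes did. In Il2ramut/mut mice 447 were called (18.8%), 298 higher and 149 lower in Treg cells, against 11.3% of all probe sets (5.43% higher and 5.91% lower). In WT mice 306 were called (12.8%), 199 higher and 107 lower in Treg cells, against 7.89% of all probe sets (4.37% higher and 3.52% lower). By the mean of all 10 arrays the counts were 404 and 271 of 2213. Properly named probe sets at the same signal gave 2349 calls in Il2ramut/mut mice and 1891 in WT mice of 7882. The calls of the 2 genotypes had 252 transcripts in common, 56.4% of the Il2ramut/mut list and 82.4% of the WT list. All 252 had the same direction (180 higher and 72 lower in Treg cells). The differences share no array, but the same fit over all 10 arrays gave both their variance, so the lists are not independent. Without Il2ramut/mut Treg replicate 2 the WT count was 264. The 195 called only in Il2ramut/mut mice and the 54 called only in WT mice are not shown to differ between genotypes, since the difference of effects was called for none. The WT count became 202 without WT Tconv replicate 1 and 162 without WT Tconv replicate 2.

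**Figure D2:**
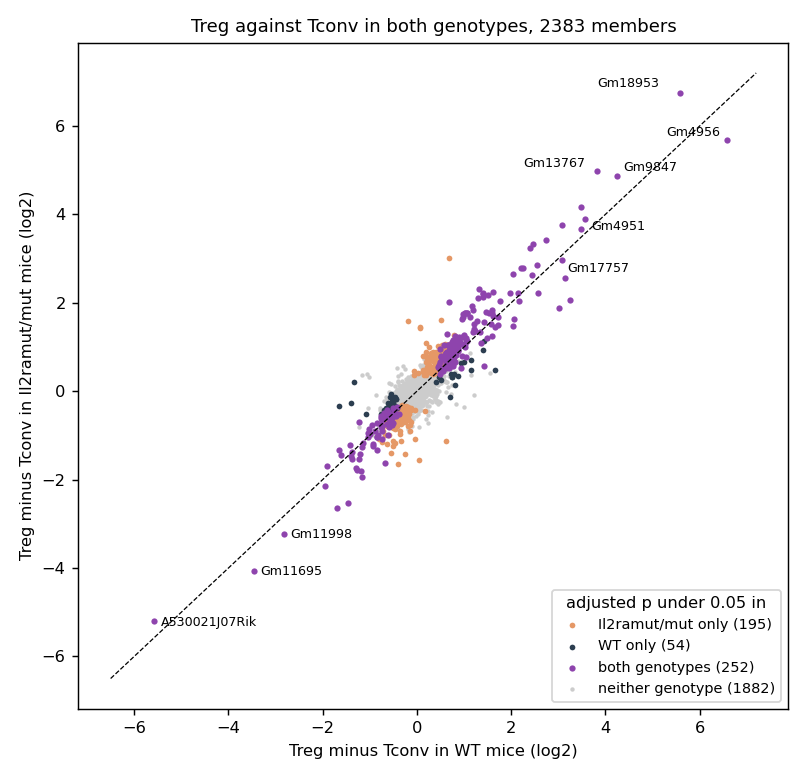
Treg minus Tconv difference (log2) of each of the 2383 transcripts in WT mice (x axis) and in Il2ramut/mut mice (y axis), coloured by where the adjusted p was under 0.05, with the line of equal differences dashed. The 252 called in both genotypes lie along the line, from A530021J07Rik at -5.58 in WT mice to Gm4956 at 6.59.

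Calls were spread unevenly over the gene types. Of the 196 lncRNAs 36.7% were called between Treg and Tconv cells in Il2ramut/mut mice and 29.1% in WT mice, in WT mice 29 higher and 28 lower. Pseudogenes were called in 20.1% and 13.4% of cases, and most of the called ones were higher in Treg cells (219 of 281 in Il2ramut/mut mice, 137 of 187 in WT mice). Over all 1400 pseudogenes, called or not, 714 differences were positive in Il2ramut/mut mice and 662 in WT mice. Of the 153 protein-coding genes 34 and 29 were called, and snoRNAs in 12.5% and 8.93% of cases. Of the snRNAs 19 (5.15%) and 7 (1.90%) were called. All 10 guide RNAs, a RefSeq class of small RNAs that direct RNA modification, were positive in WT mice with 2 called, and 8 were positive in Il2ramut/mut mice with 4 called. For comparison, 1116 of all 2383 transcripts were positive in WT mice and 1066 in Il2ramut/mut mice. Over all 65956 probe sets the counts were 22085 and 22364.

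**Figure D3:**
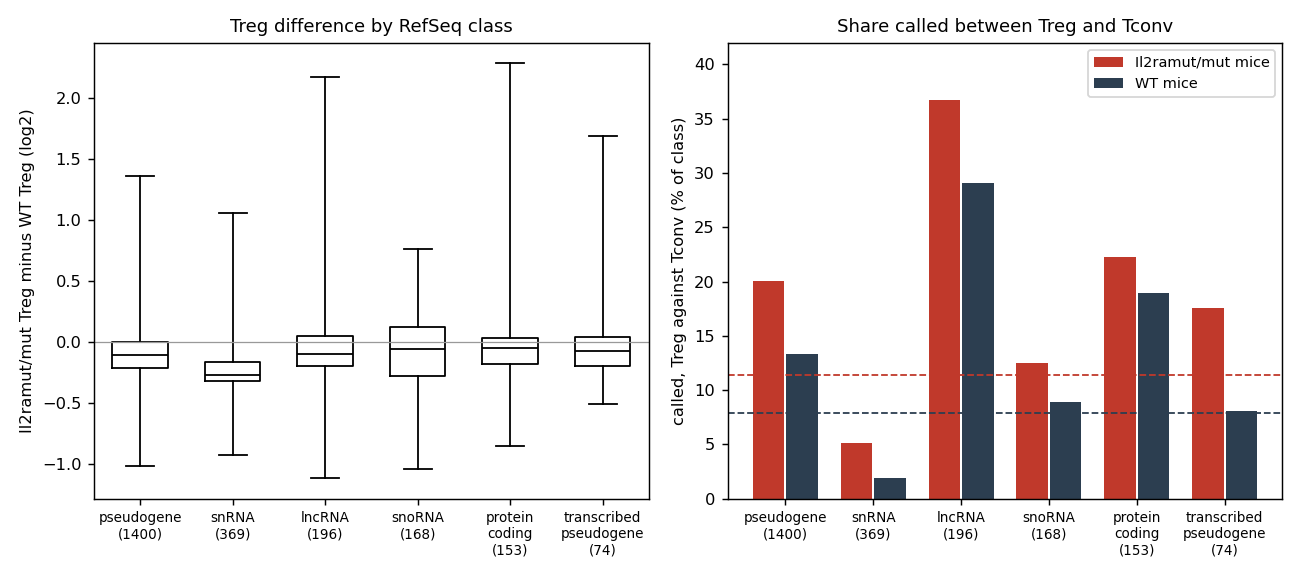
Left, the Il2ramut/mut minus WT difference in Treg cells (log2) for the 6 largest RefSeq classes, with the box over the middle of the values, the line at the median and whiskers to the lowest and highest. Right, the share of each class called between Treg and Tconv cells. Dashed lines mark the shares over all probe sets (11.3% in Il2ramut/mut mice, 7.89% in WT mice). Every plotted class except the snRNAs exceeds the line in both genotypes, the lncRNAs by the most. The transcripts were chosen by their signal. Properly named probe sets at the same signal gave 2349 calls in Il2ramut/mut mice and 1891 in WT mice of 7882.

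The largest difference between WT Treg and WT Tconv cells was that of Gm4956, a transcribed pseudogene between Gsta3 and Khdc1a on chromosome 1. Gm4956 reached the signal limit only in Treg cells, so it had to be higher there to be included. It stood at 12.02, 12.44 and 12.65 on WT Treg arrays against 5.39 and 6.17 on WT Tconv arrays, a difference of 6.59 ± 0.23 (adjusted p = 9.55e-08). In Il2ramut/mut mice it stood at 12.03, 11.80 and 12.07 on Treg arrays against 6.31 and 6.26 on Tconv arrays, a difference of 5.68 ± 0.23. Its neighbour Gm21909, which reached the signal limit only in WT Treg cells, was at least 7.30-fold higher in WT Treg cells (adjusted p = 0.000714), a bound because both WT Tconv arrays were at background. Khdc1a and Khdc1c, coding genes of the KH domain family on the far side, were also higher in WT Treg cells, Khdc1a by 1.22 ± 0.17 (adjusted p = 0.00129) and Khdc1c at least 1.72-fold (adjusted p = 0.00388), with Tconv arrays at background. Gsta3 and Khdc1b were at background on all 5 WT arrays.

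Several of the largest differences lay close together on a chromosome, and 3 such stretches were singled out after their values were seen. Beside the one at Gsta3, another lay among olfactory receptor genes next to Ptprj on chromosome 2. Ptprj encodes the receptor tyrosine phosphatase CD148 of leukocytes. Gm18953 stood at 11.77, 12.03 and 12.27 on Il2ramut/mut Treg arrays and 10.79, 11.03 and 10.98 on WT Treg arrays, against 4.86 and 5.71 on Il2ramut/mut Tconv arrays and 5.85 and 4.86 on WT Tconv arrays. Treg cells were higher by 6.74 ± 0.30 in Il2ramut/mut mice and by 5.58 ± 0.30 in WT mice (adjusted p = 2.33e-06). Gm13767 was higher in Treg cells by 4.97 ± 0.24 and 3.81 ± 0.24 in the same order of genotypes, and Gm13768 at least 5.88-fold and 3.43-fold, bounds because all 4 Tconv arrays were at background. Gm18953 and Gm13767 reached the signal limit only in Treg cells, and Gm13768 only in Il2ramut/mut Treg cells. They had to be higher there to be included. Gm13768 is the third transcript called higher in Il2ramut/mut than in WT Treg cells, at 7.54, 7.84 and 8.19 against 6.99, 6.94 and 6.79 (difference 0.95 ± 0.15, adjusted p = 0.0360), and its call was lost in 9 of the 10 fits without 1 array (adjusted p up to 0.137).

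Between the Treg genotypes Gm18953 differed by 1.09 ± 0.27 (adjusted p = 0.190) and Gm13767 by 1.13 ± 0.21 (adjusted p = 0.0766), neither of them called. Ptprj was 1.21 ± 0.15 higher in Il2ramut/mut Treg cells (adjusted p = 0.0138) and at least 16.2-fold higher in WT Treg than in WT Tconv cells, where both arrays were at background (adjusted p = 2.86e-07). Over the 10 arrays the 3 pseudogenes followed Ptprj at r = 0.997, 0.993 and 0.997 for Gm13768, Gm18953 and Gm13767. The receptor genes of the stretch did not: Olfr1270, Olfr142, Olfr1271, the pseudogene Olfr1273-ps and Olfr1274 had group means of 3.40 to 5.21, at or near background, and correlations of -0.49 to 0.12 with Ptprj. Of the 14 genes annotated there, 9 probe sets named 1 gene. The 3 pseudogenes and Ptprj were high on Treg and low on Tconv arrays, so their correlations describe the group pattern. Penk and Myo1f, outside the stretch, followed Gm13768 at r = 0.996 each.

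The last stretch held interferon-inducible GTPase genes beside Iigp1 on chromosome 18. The GTPases of this family act on the vacuoles of intracellular pathogens. Gm4951 stood at 10.54, 10.15 and 10.54 on Il2ramut/mut Treg arrays and 10.79, 10.63 and 11.20 on WT Treg arrays, against 6.67 and 6.36 on Il2ramut/mut Tconv arrays and 7.64 and 6.96 on WT Tconv arrays. In WT mice Treg cells were higher by 3.57 ± 0.23 for Gm4951 (adjusted p = 7.84e-06), 3.13 ± 0.32 for the pseudogene Gm5970, 3.48 ± 0.28 for Gm4841 and 3.49 ± 0.34 for F830016B08Rik. Iigp1 itself was 1.95 ± 0.23 higher, and the 4 transcripts followed it over the arrays at r = 0.941 to 0.985. All were high on Treg arrays, so these correlations describe the group pattern. Of the 4 transcripts, Gm5970, Gm4841 and F830016B08Rik reached the signal limit only in Treg cells, so they had to be higher there to be included. None of the 4 was called between the genotypes in Treg cells (differences -0.77 to 0.32) or in Tconv cells (-0.78 to -0.18).

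**Figure D4:**
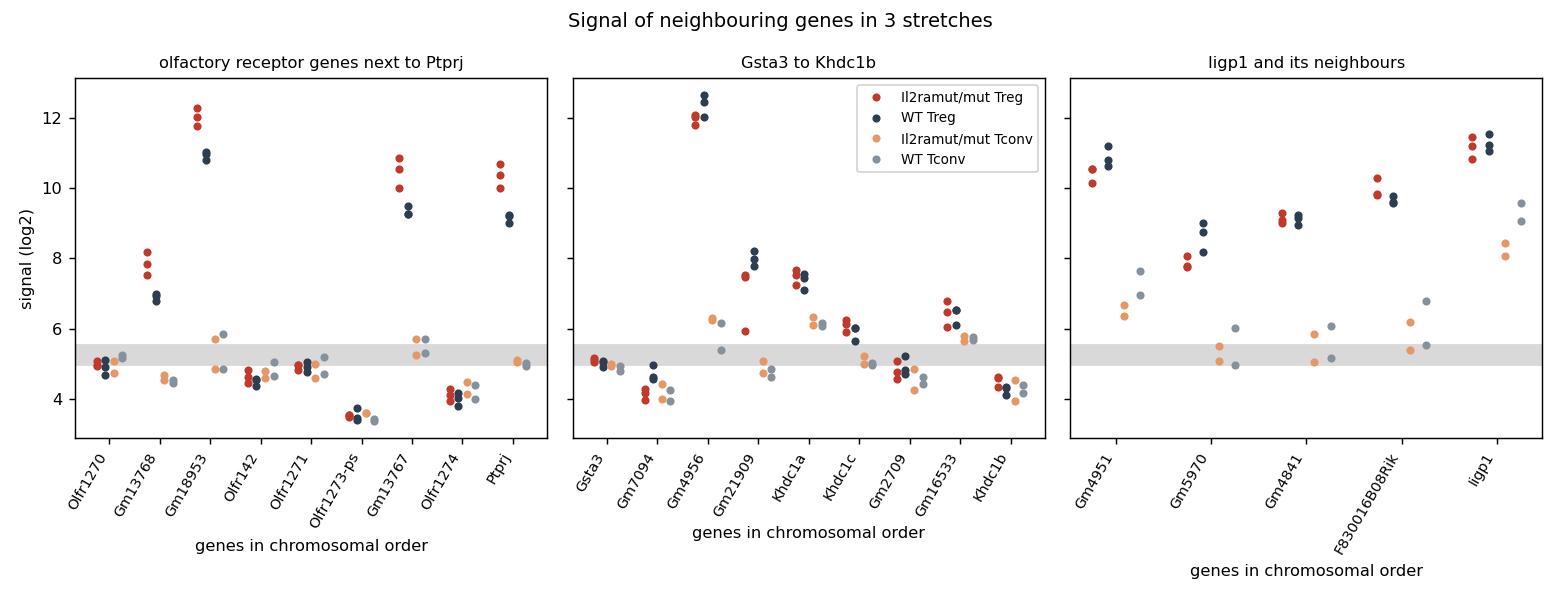
Signal (log2) on each of the 10 arrays for the genes of the 3 stretches that have a probe set of their own, in chromosomal order, with a grey band over the background levels of the arrays. Gm18953, Gm13767 and Ptprj lie high on Treg arrays among olfactory receptor genes near background, Gm4956 and Gm21909 stand out between Gsta3 and Khdc1a, and the 5 genes at Iigp1 are higher on Treg arrays together.

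Of the interferon-inducible list as a whole, 7 of 15 genes were among the transcripts, and 5 were called higher and none lower in Treg cells in either genotype, with a median difference of 2.96 in Il2ramut/mut mice and 3.08 in WT mice, against -0.08 over all probe sets in each. Besides 3 genes of the stretch at Iigp1 these were Gm17757, a very large inducible GTPase pseudogene at 13.59 to 13.84 on WT Treg arrays against 10.69 and 10.56 on WT Tconv arrays (3.08 ± 0.13, adjusted p = 4.47e-07), and Gm12250, the GTPase Irgb10, at 1.4 ± 0.23 (adjusted p = 0.00408). Gm1966 (0.05 ± 0.14, adjusted p = 0.874) and Gm5431 (-0.38 ± 0.19, adjusted p = 0.315) were not called. Gm4841 and F830016B08Rik had to be higher in Treg cells to be included, so the count and the medians are partly set by the signal limit. Of the same list, 9930111J21Rik2 was measured but lay outside the naming rule. Its Treg minus Tconv differences were -0.09 in Il2ramut/mut mice and -0.08 in WT mice, neither called. The genotype comparisons called none of the 7 in Treg or in Tconv cells. Of the Sp100 and Sp140 family 2 of 5 genes were measured here, and Gm15433 was called higher in WT Treg cells (1.60 ± 0.21, adjusted p = 0.00104) while A530040E14Rik was not (0.07 ± 0.16, adjusted p = 0.857). Gm15433 reached the signal limit only in Treg cells, so it had to be higher there to be included. The lists of MHC class I-like genes, lncRNAs with a described role, scavenger and lectin-like receptors, cell cycle genes and satellite or ribosomal RNA repeats had no gene among the transcripts. Most of their genes were not measured by a probe set of 1 gene, so their expression is unknown. These include every cell cycle gene and all the repeats but Gm15564. The genes that were measured lay under the signal limit. Of 15 properly named noncoding RNA genes measured, 2 were called higher and 2 lower in Treg cells in each genotype, and none between genotypes.

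The remaining ones of the 10 highest were the pseudogenes Gm9847 and Gm6166. Gm9847 on chromosome 12 stood at 13.22, 12.23 and 12.88 on Il2ramut/mut Treg arrays and 11.82, 11.71 and 11.33 on WT Treg arrays, against 8.09 and 7.71 on Il2ramut/mut Tconv arrays and 7.45 and 7.29 on WT Tconv arrays. Treg cells were higher by 4.25 ± 0.26 in WT mice (adjusted p = 5.42e-06), and the genotypes of Treg cells differed by 1.16 ± 0.23 (adjusted p = 0.0991). Its named neighbour Trib2 differed by -0.12 ± 0.14 (adjusted p = 0.687), and Lratd1 on the other side was at background on all arrays. Gm6166 on chromosome 9 was higher by 3.08 ± 0.23 in WT mice (adjusted p = 2.16e-05), with its neighbour Scamp5 at -0.18 ± 0.10 (adjusted p = 0.362) and Rpp25 at background on all arrays. Gm6166 reached the signal limit only in Treg cells, so it had to be higher there to be included. Of the 10 measured neighbours of the 10 highest, 2 were called higher in WT Treg cells and none lower. For comparison, 4.37% of all probe sets were called higher, and 1189 of the 7882 properly named ones that reached the signal limit.

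The largest difference in the other direction was that of A530021J07Rik, a coding gene between Mex3b and Tmc3 on chromosome 7. It stood at 7.47, 6.84 and 6.80 on Il2ramut/mut Treg arrays and 7.54, 6.39 and 6.97 on WT Treg arrays, against 12.44 and 12.05 on Il2ramut/mut Tconv arrays and 12.39 and 12.69 on WT Tconv arrays. The difference was -5.21 ± 0.32 in Il2ramut/mut mice and -5.58 ± 0.32 in WT mice (adjusted p = 3.02e-06). Neither neighbour was lower in WT Treg cells (Mex3b 0.10 ± 0.22, Tmc3 0.44 ± 0.12). Of all probe sets 3.52% were called lower in WT Treg cells, as were 702 of the 7882 properly named ones that reached the signal limit. The 10 lowest had 23 measured neighbours or host genes in all, of which 10 were called lower, 2 higher and 11 not called. Among the lower ones, Gm11695 (-3.46 ± 0.16) overlaps Slc16a5, which was at least 4.18-fold lower (adjusted p = 7.91e-06) with all 3 WT Treg arrays at background, Gm11998 (-2.81 ± 0.28) lies next to Ikzf1 (-1.46 ± 0.10), which encodes the lymphoid transcription factor Ikaros, and Gm11346 (-1.96 ± 0.16) lies in Ripor2 (-1.20 ± 0.13) beside Cmah (-2.10 ± 0.16). Gm10640 (-1.90 ± 0.17) lies next to Gramd1a (-1.59 ± 0.14), and A930005H10Rik (-1.60 ± 0.14) overlaps Dph5 (-1.23 ± 0.11) beside S1pr1 (-1.22 ± 0.17), the receptor by which lymphocytes leave lymph nodes. The genes called higher were Aim2 and Mfap3. Gm11695, Gm11998 and Gm10640 reached the signal limit only in Tconv cells, so they had to be lower in Treg cells to be included. The snRNA Gm24582 lies in Galnt10 (-1.32 ± 0.15), and its WT call (-1.70 ± 0.44, adjusted p = 0.0453) was lost without any 1 of 8 arrays.

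Gm4955, whose promoter window is printed above, was lower in Treg cells, at 13.90, 12.94 and 13.91 on Il2ramut/mut Treg arrays and 13.55, 13.67 and 14.04 on WT Treg arrays, against 14.81 and 15.01 on Il2ramut/mut Tconv arrays and 15.42 and 15.40 on WT Tconv arrays. The difference was -1.33 ± 0.27 in Il2ramut/mut mice (adjusted p = 0.0111) and -1.66 ± 0.27 in WT mice (adjusted p = 0.00399). Of its neighbours in the same family cluster, Ifi214 was lower (-1.28 ± 0.26, adjusted p = 0.0152) and the DNA sensor gene Aim2 was higher (0.85 ± 0.13, adjusted p = 0.00226) in WT Treg than in WT Tconv cells. The snoRNA Gm22888 (-1.66 ± 0.30, adjusted p = 0.0071) and the pseudogene Gm26187 (-1.45 ± 0.35, adjusted p = 0.0320) were the remaining ones of the 10 lowest. The call of Gm22888 was lost without WT Tconv replicate 2, and that of Gm26187 without any 1 of 4 arrays.

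Pseudogenes can be set beside the gene they were copied from. Of the 52 with a parent in their RefSeq name, 40 had a parent measured by a probe set of 1 gene (36 parents), and 35 of the 40 pairs had differences of the same sign between WT Treg and WT Tconv cells. Only 5 of the pseudogenes and 4 of the parents were called there, with both called in 3 pairs. The correlation of pseudogene and parent over the 10 arrays had a median of 0.818 (range -0.752 to 0.989) and was 0.9 or more in 13 pairs. The arrays fall into 4 groups, and unrelated pairs were not compared. Probes of a pseudogene and its parent can bind the same RNA, so the signal of such a pair cannot be assigned to either gene. Gm12699 (Ccdc50-ps) had the closest match. It stood at 8.86, 9.26 and 9.24 on WT Treg arrays against 6.90 and 6.22 on WT Tconv arrays (2.56 ± 0.22, adjusted p = 5.16e-05), and Ccdc50, which encodes a ubiquitin-binding signaling protein, was 2.84 higher. Gm14556 (Zfp36l1-ps) was higher by 0.96 ± 0.24 (adjusted p = 0.0410) beside 1.16 for Zfp36l1, and Gm13509 (Ap2m1-ps) by 0.69 ± 0.14 (adjusted p = 0.0126) beside 0.46 for Ap2m1. The pair below 0 was a second probe set of Gm10012 with Cox7c, while its first followed Cox7c at r = 0.872.

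**Figure D5:**
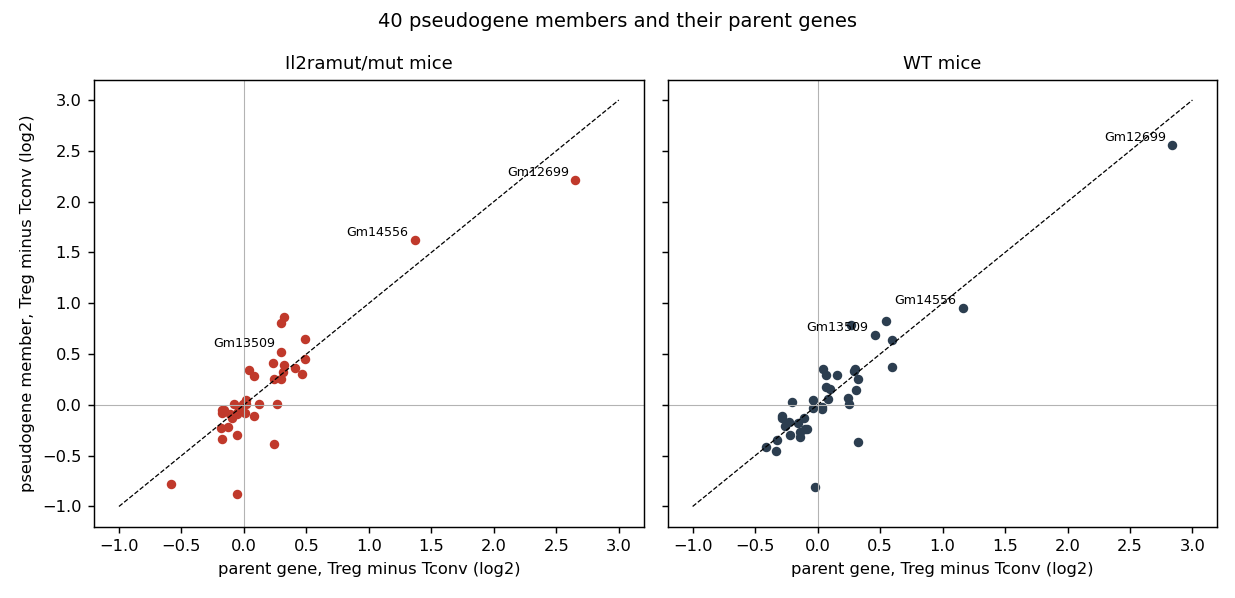
Treg minus Tconv difference (log2) of 40 pseudogenes (y axis) against that of the parent gene (x axis), in Il2ramut/mut mice on the left and WT mice on the right, with equal differences dashed. Most points lie near the line, with Gm12699 farthest along it at 2.21 in Il2ramut/mut mice and 2.56 in WT mice.

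The 10 transcripts with the highest mean signal were Gm13456, Gm7117, Gm12191, Gm14633, Gm7429, Gm9493, Gm10186 (now Rps23-ps2), Gm15427, Gm15796 and Gm6570, of which 7 were pseudogenes, 1 a transcribed pseudogene and 2 coding genes. Over the 10 arrays Gm13456 ran from 19.09 to 19.27 and Gm6570 from 18.35 to 18.77, where the highest value in the table was 19.86. None of the 10 was called in any of the comparisons between genotypes.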

How the data were processed

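RNA of 50000 sorted cells per sample was hybridised to mouse MTA 1.0 (Pico) arrays. The deposited values are log2 signals, 1 per probe set and array, which the authors made with Affymetrix Expression Console 1.4.1.46 and analysed with Transcriptome Analysis Console 3.1.0.5, per the labels. No source states the log base, and log2 was taken from the span of the values (1.96 to 19.86). The sources used here do not name the summarisation method or the genome build.

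Of 72688 probe sets, 6732 controls were left out. The 65956 others were fitted with limma 3.58.1 (R 4.3.3) as 4 group means over all 10 arrays (6 residual and 3.535 prior degrees of freedom), with moderated variances, 5 contrasts and Benjamini-Hochberg adjustment over all probe sets. Calls were adjusted p-values under 0.05. The code was tested on simulated data. Tables were built with Python 3.11.15, pandas 2.3.3 and numpy 2.4.6. Gene symbols came from the platform annotation (30646 probe sets named 1 gene, 2168 several and 33142 none), and RefSeq tables (GRCm38.p6) gave gene types, gene order and promoters. No sequence was printed for pseudogenes and small RNAs. A transcript measured at background on all arrays of a group has a bound in place of a fold, set against the background levels of those arrays.

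The members, gene lists and tests were chosen with earlier results of these data known. Named were the called transcripts of the Treg genotype comparison, the 5 of lowest p between Tconv genotypes and in the difference of effects, the 10 most higher and 10 most lower in WT Treg than in WT Tconv cells, the 10 of highest mean, the members of the gene lists and those nearest the signal limit. Alternatives were quantile normalization, a filter on dim probe sets, a trended robust variance, the arrays compared only, a replicate block, other signal limits, the methods' t-test and leaving out each array. Same-numbered arrays correlated at -0.143 to 0.124 over 13 pairs. The 2 arrays of a Tconv group mirror each other in this measure, with r = -0.143 for both same-numbered Tconv pairs and 0.143 for both others. The 13 pairs are thus not separate checks and cannot decide whether the samples were paired. The numbers were not taken to pair samples.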

Additional observations from a re-analysis of the deposited data

How the results depend on the processing

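The count of 6 transcripts called between Il2ramut/mut and WT Treg cells became 10 with dim probe sets left out, 3 with a replicate block, 3 (all lower) with a signal limit of 8, 2 (both lower) with the limit on the mean of all arrays, 15 by the methods' t-test at its fold and p, 0 by that test after Benjamini-Hochberg adjustment and 1 to 4 without single Treg arrays. The transcripts called under an alternative were not always among the 6. The Tconv genotype count of 0 became 4 by the methods' t-test, and 0 of these passed adjustment. For WT Treg against WT Tconv cells (306), the methods' t-test counted 149, or 37 after adjustment, and leaving out single arrays gave 162 to 336. For Il2ramut/mut Treg against Il2ramut/mut Tconv cells (447), the count was 695 with no signal limit, 164 by the methods' t-test, 36 after adjustment and 299 to 441 without single arrays. With the replicate block those 2 counts were 378 in Il2ramut/mut mice and 252 in WT mice, and the remaining comparisons stayed at 0. The count for the difference of effects was 0 under each alternative run, which left out the fit on the compared arrays and the methods' t-test. Leaving out the chromosome 14 probe sets and keeping 1 transcript per set of identical values were added after seeing the data, and gave 4 and 6 for the Treg genotypes. For the named transcripts with a test, 602 values over 36 results kept their direction, and 81 of them, in 20 results, no longer passed the threshold. The results between Tconv genotypes and for the difference of effects were never under the threshold, so they could not lose a call. The 6 Treg genotype calls held less well. Of 17 alternatives, they were lost under 1 (9630013D21Rik), 6 (Gm11695), 8 (Gm10087), 8 (Gm11454), 13 (Gm13768) and 16 (Gm20324). The causes were not tested. Groups of 2 or 3 arrays limit all of these counts.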
